A study of Homo sapiens with 31 samples.

Results

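A set of 100 transcripts gained translation efficiency in HEK293 T-REx cells that lack EIF4A1. HEK293 T-REx cells derive from human embryonic kidney and carry a repressor system for inducible transgenes. Translation efficiency was taken as the change of ribosome footprints, the short RNA fragments that a ribosome protects from nuclease, beyond the change of RNA-seq. The deposited tables gave whole-number counts for 227264 Ensembl transcripts in each of 31 libraries. Of 77343 distinct transcripts with a count, 28647 met the minimums: at least 100 counts in all 4 RNA-seq libraries, at least 30 in both footprint libraries of EIF4A1 knockout (KO) cells in DMSO, and a deposited length value under 3000. Counts were put on a log2 scale of CPM (counts scaled to a common library sum), with 0.5 added. Members were chosen by these values: each had a footprint change in DMSO, EIF4A1 KO minus naive, that exceeded its RNA-seq change by 1 or more, and 1 transcript was left out by the rule. On the losing side, 107 candidates had a change of -1 or lower. The 3 members nearest the threshold had values of 1.0019, 1.0066 and 1.0085, and the 3 candidates just outside it had 0.9985, 0.9994 and 0.9995.

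Members of the same gene can share reads. Members listed within 20 positions of each other in the tables whose log2 CPM correlated at 0.8 or more over the 31 libraries were therefore counted as 1 locus, which gave 57 loci (59 with a correlation of 0.9). Of these, 35 loci held 1 member and 2 loci held 6 members each. No deposited file links a transcript to its gene, and 0 of the 100 member identifiers occurred in the gene tables at hand, so members are given by transcript identifier, with no gene name, position or sequence.

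As background, eIF4A is the RNA helicase of the cap-binding complex eIF4F, in which it works with the cap-binding protein eIF4E and the scaffold eIF4G. It opens structure near the start of an mRNA so that the small ribosomal subunit can load and scan, and mRNAs differ widely in how much they need it. Human cells carry the closely related paralogs eIF4A1 and eIF4A2, of which eIF4A1 is usually the more abundant in growing cell lines. The kinase mTOR controls eIF4F through the eIF4E-binding proteins, and the RNA-binding protein LARP1 links mTOR to the translation and stability of mRNAs that encode the translation machinery.

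The series compared naive cells with 1 EIF4A1 KO line and 1 EIF4A2 KO line, so a difference between lines cannot be told apart from a difference between genotypes. For ribosome profiling, each line gave 2 DMSO libraries, with single libraries of cells treated for 30 min with 1 µM or 10 µM of PP242, which inhibits the kinase mTOR. The RNA-seq libraries, 2 per line, covered the naive and the EIF4A1 KO line. RNA captured with SBP-eIF4A1 or SBP-eIF4A2, initiation factors that carry a streptavidin-binding peptide, was sequenced beside its input, with 2 input and 2 pulldown libraries per protein. In SBP-eIF4A1 cells, 72 h of control siRNA (siControl) was followed by 2 input and 2 pulldown libraries, and 72 h of LARP1 siRNA (siLARP1) by 2 input libraries and 1 pulldown library. Genotype, knockdown and cell line rest on the labels, because the level of EIF4A1, EIF4A2, LARP1 and of cell line markers could not be read without gene names. No pulldown from cells without a tagged protein was analysed here.

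Library totals ranged from 9206275 to 23604578 counts in the 12 footprint libraries, from 72099934 to 78989380 in the 4 RNA-seq libraries and from 43413344 to 64179407 in the 15 input and pulldown libraries. The library labelled siLARP1 input replicate 2 stood apart. The 2 siLARP1 inputs differed by a median of 0.23 on the log2 CPM scale over the candidates, the 2 siControl inputs by 0.12 and the 2 SBP-eIF4A1 inputs by 0.068. At 35 candidates the SBP-eIF4A2 inputs differed from the SBP-eIF4A1 inputs by 2 log2 units or more. There, siLARP1 input replicate 2 lay a median of 1.02 log2 units away from the siControl inputs in the direction of the SBP-eIF4A2 inputs, and siLARP1 input replicate 1 lay 0.22 away. The main counts of members that rest on this library are given with and without it, and other values may include it.

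The DMSO footprints and RNA-seq chose the members, so their values are a description and carry no test. The median gain of translation efficiency was 1.08, against 0.055 over the 28647 candidates, and the highest was 1.98. Footprints of the members were higher in EIF4A1 KO cells by a median of 0.83 (candidates 0.10), and RNA was lower by a median of 0.26, with a change of -0.26 against 0.043. The choice favours higher footprints and lower RNA in the KO line, and the next counts were not taken over the candidates. Both KO footprint libraries lay above both naive ones for 86 members and below both for 8. Both KO RNA-seq libraries lay below both naive ones for 62 members and above both for 14. The gain thus had more than 1 composition. Members were grouped, after these values had been seen, by whether RNA was lower by 0.5 or more, within 0.5, or higher by 0.5 or more.

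**Figure D1:**
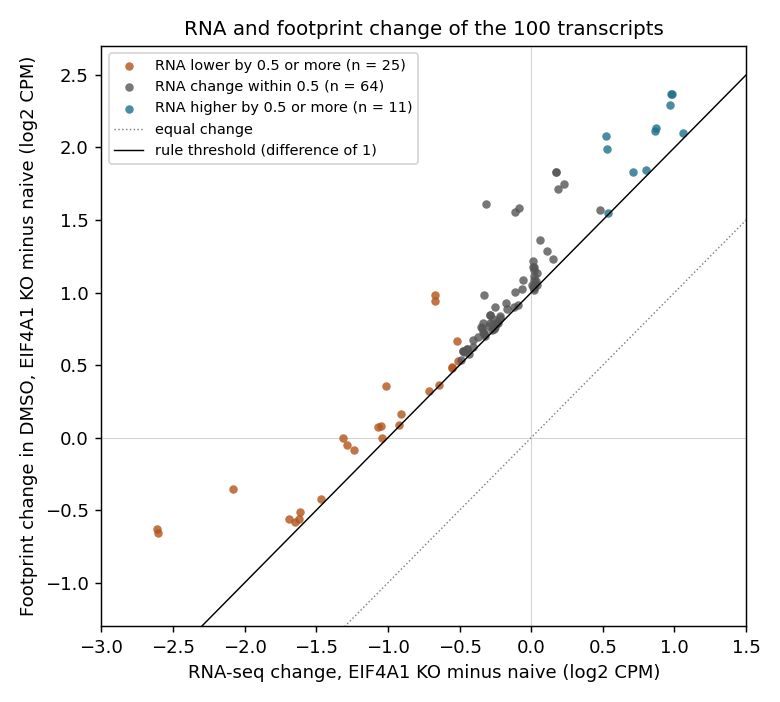
Each point is 1 of the 100 member transcripts. The horizontal axis is the RNA-seq change and the vertical axis the footprint change in DMSO, both EIF4A1 KO minus naive in log2 CPM, from the means of 2 libraries per group. The solid line is the threshold of the rule, which all points lie on or above, the dotted line is an equal change, and the colours mark the 25, 64 and 11 members with lower, nearly level and higher RNA.

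RNA was lower by 0.5 or more for 25 members of 19 loci, with a median RNA change of -1.05 and a median footprint change of 0.071. Footprints of these members went both ways, from -0.66 to 0.98, with 13 above 0 and 12 below. RNA stayed within 0.5 for 64 members of 35 loci, with a median RNA change of -0.22 and a footprint change of 0.90. The rule and the bound on RNA together required more footprints in EIF4A1 KO cells for all 64. The footprint change ran from 0.54 to 1.83. RNA was higher for 11 members of 5 loci, with a median RNA change of 0.86 and a footprint change of 2.10. In 2 loci, members fell into more than 1 of these groups.

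In naive cells the members carried few footprints for their RNA. The median of log2 footprint CPM minus log2 RNA CPM in naive DMSO was -0.81, against 0.11 over the candidates. Below 0 were 88 of 100 members and 44.15% of candidates. A low naive footprint value raises the measure that chose them. Their median naive level was 4.05 footprint CPM and 6.64 RNA CPM, against 10.4 and 10.4 for the candidates, and the median deposited length value was 339.5 against 328.

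The counts behind these values were small in the footprint libraries. Over the members, the mean count of the 2 naive DMSO footprint libraries had a median of 88.25, with single values from 19 to 2177. In the 2 EIF4A1 KO DMSO footprint libraries the median was 55 and the range 30 to 1962. The RNA-seq counts were higher, with a lowest value of 141 in naive and 113 in EIF4A1 KO cells and medians of 508 and 361. Replicates of the members differed by a median of 0.21 log2 units in EIF4A1 KO footprints, 0.14 in naive footprints, and 0.085 (EIF4A1 KO) and 0.089 (naive) in RNA-seq. The minimum of 30 applied only to the group that had to be high, and 11 members had fewer than 30 counts in a naive footprint library. Which transcripts qualified depended on the libraries: without EIF4A1 KO DMSO footprint replicate 2, 188 transcripts met the rule, 78 of them among the 100.

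The largest gain belonged to ENST00000368222.8, a member whose RNA was lower. Its RNA-seq level was 16.4 and 16.7 CPM in naive cells and 2.83 and 2.59 CPM in EIF4A1 KO cells. Its DMSO footprints were 7.18 and 5.55 CPM in naive and 4.87 and 3.37 CPM in EIF4A1 KO cells. Both assays were lower in the KO line with no overlap between groups, RNA by more than footprints, which gave a gain of 1.98.

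ENST00000613174.1 had the same composition and a gain of 1.95. Its RNA-seq level was 25.3 and 25.3 CPM in naive against 3.69 and 4.65 CPM in EIF4A1 KO cells, and its DMSO footprints were 83.7 and 92.2 CPM against 54.9 and 56.6 CPM. The groups did not overlap in either assay.

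The inputs of the tagged lines gave a second view of RNA, in cells with other transgenes. Of the 25 members with lower RNA, 16 had a mean log2 level in the 4 inputs without siRNA that was nearer the naive RNA-seq level than the EIF4A1 KO level. Of the 11 members with higher RNA, 5 were nearer the naive level. The others were the members of the locus of ENST00000323963.10, where the mean joins 2 unlike lines. That transcript had 93.7 and 93.6 CPM in the SBP-eIF4A1 inputs and 272 and 276 CPM in the SBP-eIF4A2 inputs. Its RNA-seq level was 84.0 and 84.0 CPM in naive and 166 and 165 CPM in EIF4A1 KO cells. These counts were not taken over the candidates. ENST00000613174.1 was among those whose tagged lines differed, with 6.58 and 6.40 CPM in the SBP-eIF4A1 inputs and 22.8 and 23.2 CPM in the SBP-eIF4A2 inputs.

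The PP242 footprint libraries entered none of the values that chose the members, although they came from the same lines. They asked whether footprints of the members still differed between EIF4A1 KO and naive cells when mTOR was inhibited. On the log2 CPM scale the median difference over the members was 0.024 at 1 µM and 0.16 at 10 µM, against 0.012 and 0.041 over the candidates. With 1 library per dose and genotype, 45 members were higher in EIF4A1 KO cells at both doses, where 38.4% of candidates were, and 21 were lower at both, where 31.3% of candidates were.

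For a test, both doses were taken as 1 treated group of 2 libraries. By edgeR's quasi-likelihood test at a Benjamini-Hochberg adjusted p under 0.05, 18 members of 8 loci were higher in EIF4A1 KO than in naive cells, beside 7.29% of all 54938 transcripts tested. Another 5 members of 5 loci were lower, beside 6.83% of all transcripts tested. Among the candidates the shares were 10.9% higher and 9.91% lower. The calls split by RNA: all 11 members with higher RNA were called higher, with 7 of the 64 whose RNA was nearly level and 0 of the 25 whose RNA was lower. Of the 5 members called lower, 4 had lower RNA and 1 nearly level RNA. The RNA groups were made after the values had been seen. By the rule, higher RNA came with a large DMSO footprint difference between the same lines, here 1.55 or more. The 11 members lie in 5 loci, 1 of which holds 6 of them. No RNA-seq library was labelled as treated with PP242, so RNA level and translation cannot be told apart here. DESeq2's Wald test called 13 members higher and 1 lower, beside 6.94% of all transcripts in either direction (14.1% in edgeR).

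**Figure D2:**
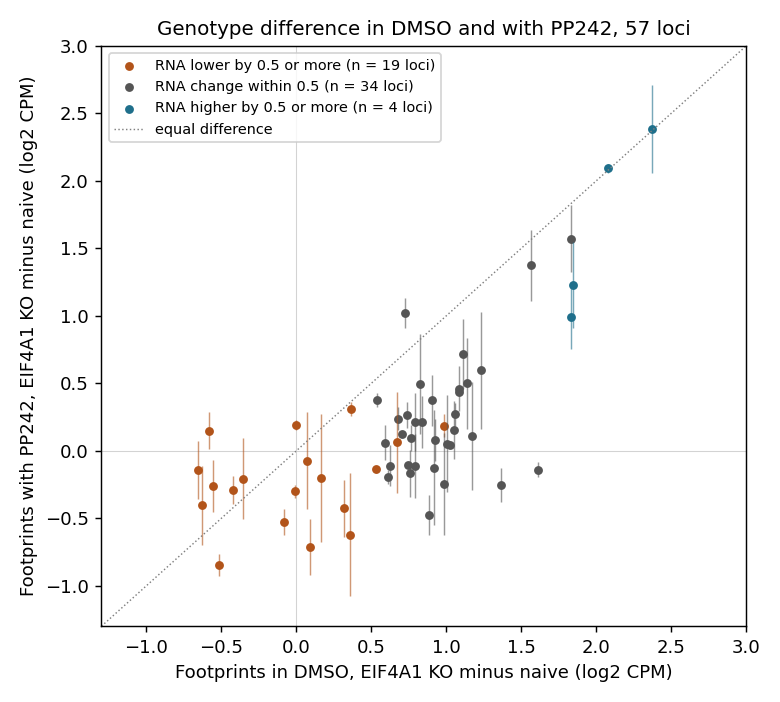
Each point is the transcript with the largest gain in 1 of the 57 loci, with the EIF4A1 KO minus naive footprint difference in DMSO on the horizontal axis and with PP242 on the vertical axis, both in log2 CPM. Vertical bars join the 1 µM and 10 µM values. Most loci with nearly level RNA lie to the right of the dotted line of equal difference, and the loci with higher RNA have differences of 0.99 or more on both axes.

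The largest difference among the named members was that of ENST00000323963.10, a member with higher RNA that lies in 1 of the 2 loci with 6 members and had the highest mean RNA-seq level of the named members. Its RNA-seq level was 84.0 and 84.0 CPM in naive and 166 and 165 CPM in EIF4A1 KO cells. Its DMSO footprints were 40.8 and 33.4 CPM in naive, 195 and 187 CPM in EIF4A1 KO, and 15.7 and 15.9 CPM in EIF4A2 KO cells. The 3 lines therefore did not overlap in DMSO, with the EIF4A1 KO line highest and the EIF4A2 KO line lowest.

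With PP242 that order was the same. At 1 µM and 10 µM, ENST00000323963.10 had 18.8 and 29.4 footprint CPM in naive, 123 and 123 CPM in EIF4A1 KO, and 11.3 and 11.9 CPM in EIF4A2 KO cells. The log2 fold change of EIF4A1 KO against naive was 2.37 ± 0.0988 (SE), with an edgeR adjusted p of 5.79e-28. All 6 members of the locus were called higher in this comparison.

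ENST00000511733.1, from another locus with higher RNA, was second among the loci. Its RNA-seq level was 4.41 and 4.27 CPM in naive and 6.18 and 6.30 CPM in EIF4A1 KO cells. Its footprints at 1 µM and 10 µM PP242 were 1.39 and 1.13 CPM in naive against 6.17 and 4.91 CPM in EIF4A1 KO cells, with no overlap. The naive values rest on 20 and 11 counts. The log2 fold change was 2.06 ± 0.262 (SE; edgeR adjusted p = 2.401e-08).

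On the lower side, ENST00000297029.10 had RNA-seq levels of 7.06 and 6.88 CPM in naive and 2.26 and 2.28 CPM in EIF4A1 KO cells. Its footprints at 1 µM and 10 µM PP242 were 7.92 and 8.54 CPM in naive against 4.64 and 4.48 CPM in EIF4A1 KO cells, a log2 fold change of -0.87 ± 0.171 (SE; edgeR adjusted p = 0.0001791). Both KO libraries were below both naive ones. ENST00000549540.1 had a log2 fold change of -0.66 ± 0.19 (SE; edgeR adjusted p = 0.0117). That call did not hold with DESeq2's Wald test (adjusted p = 0.054), nor in edgeR without naive 10 µM (0.069), naive 1 µM (0.080) or EIF4A1 KO 1 µM (0.13).

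**Figure D3:**
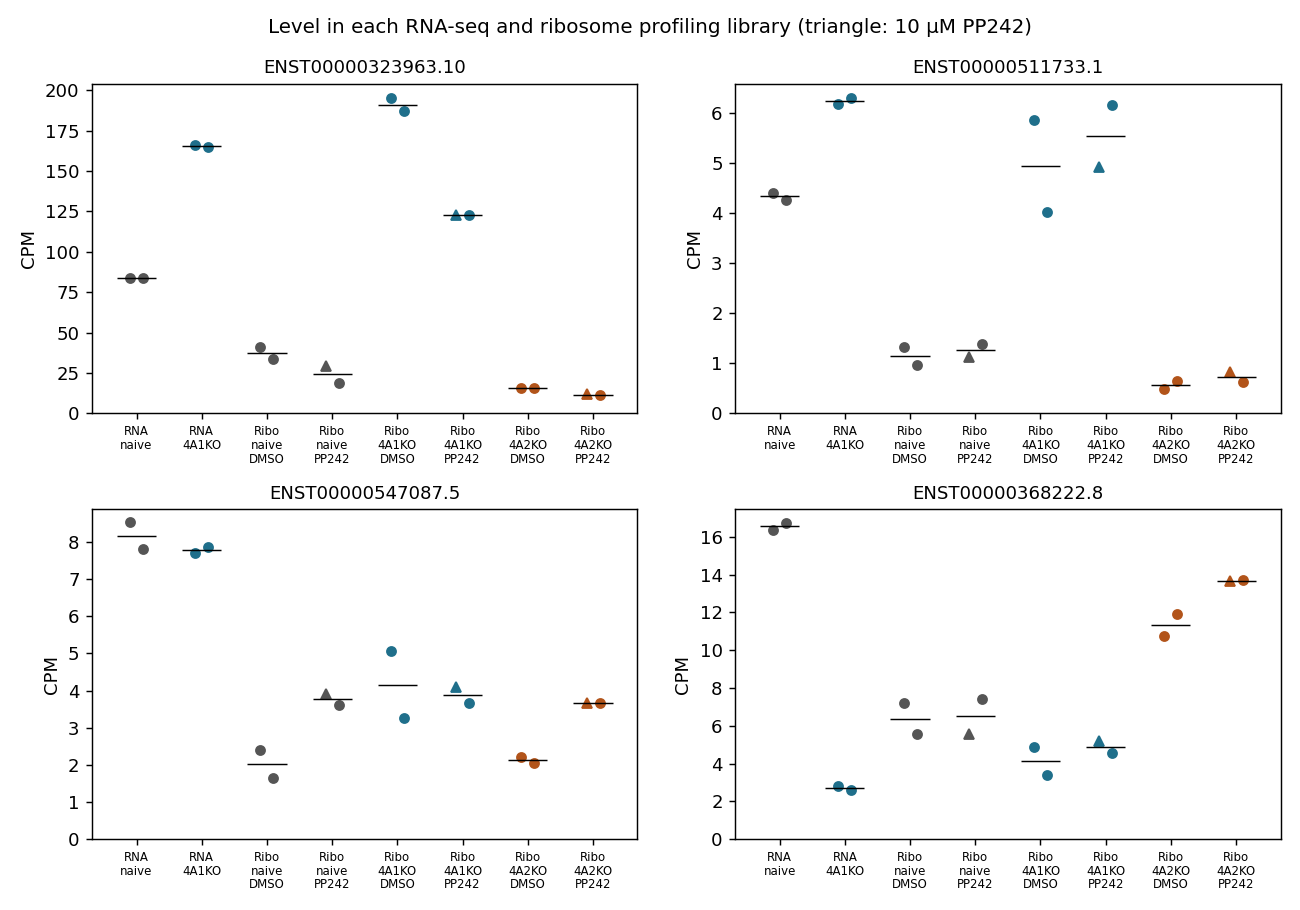
CPM (vertical axis) of 4 members in each RNA-seq and ribosome profiling library, by assay, cell line and treatment; points are single libraries, triangles 10 µM PP242, and horizontal lines the mean of the 2 libraries. ENST00000323963.10 and ENST00000511733.1 have most footprints in both EIF4A1 KO groups, ENST00000547087.5 has similar footprints in all groups except naive and EIF4A2 KO in DMSO, where it is lower, and ENST00000368222.8 has least RNA and fewest footprints in EIF4A1 KO cells.

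The PP242 response of naive and EIF4A1 KO cells reuses the DMSO libraries that chose the members. Members were chosen for high EIF4A1 KO and low naive footprints in DMSO, and that choice alone shifts PP242 minus DMSO down in EIF4A1 KO and up in naive cells. The values are therefore a description of the levels, from which no response or direction is read. PP242 minus DMSO had a median of 0.38 log2 CPM over the members in naive cells (candidates 0.21) and of -0.16 in EIF4A1 KO cells (candidates 0.11). For the 64 members with nearly level RNA the medians were 0.58 in naive and -0.15 in EIF4A1 KO cells. In naive cells 61 of the 64 were above 0, where 77.15% of candidates were. Their median difference between EIF4A1 KO and naive was 0.90 in DMSO, where they were chosen, and 0.14 with PP242. Over the 11 members with higher RNA the medians were -0.44 in the naive line, -0.29 with EIF4A1 and -0.25 with EIF4A2 knocked out. The sign of these medians comes from 1 locus, that of ENST00000323963.10, whose 6 members were below 0 in every line. In the naive line the 5 members of the other loci were all above 0. Of those 5, 4 were above 0 with EIF4A2 knocked out and 3 with EIF4A1 knocked out.

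In the EIF4A2 KO line, whose libraries did not choose the members, the response could be tested. The median of PP242 minus DMSO was 0.28 log2 CPM over the members and 0.20 over the candidates, and 0.40 for the 64 with nearly level RNA. By edgeR at an adjusted p under 0.05, 16 members of 7 loci rose, beside 5.65% of all transcripts tested, and 8 members of 4 loci fell, beside 8.53%. Among the candidates 9.47% rose and 14.4% fell. TMM scaling put the median of the candidates at 0.023 and that of the members at 0.10. Of the 16 that rose, 15 had nearly level RNA, and the 8 that fell comprised 5 with lower and 3 with higher RNA. The count depended on the libraries and the tool: 7 rose and 6 fell without EIF4A2 KO DMSO replicate 2, 8 and 7 without EIF4A2 KO 1 µM, and 8 and 5 with DESeq2's Wald test. The share of all transcripts called in either direction was also lower under these settings, at 8.87%, 8.11% and 8.41% against 14.2%.

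The member with the largest rise in EIF4A2 KO cells, picked out after its values were seen, was ENST00000549293.5, from a locus of 3 members. All 3 were called. Its footprints in EIF4A2 KO cells were 8.62 and 7.78 CPM in DMSO and 20.4 and 22.2 CPM at 1 µM and 10 µM PP242, a log2 fold change of 1.20 ± 0.116 (SE; edgeR adjusted p = 7.553e-13). In naive cells it had 7.18 and 5.97 CPM in DMSO and 18.2 and 21.0 CPM at 1 µM and 10 µM. EIF4A1 KO cells had 21.5 and 17.9 CPM in DMSO and 19.5 and 20.9 CPM with PP242. The naive and EIF4A1 KO footprints in DMSO chose this member, so nothing is read from where they lay beside the PP242 levels. RNA-seq, which also entered the rule, was 7.93 and 7.31 CPM in naive and 7.50 and 6.85 CPM in EIF4A1 KO cells.

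The levels of ENST00000547087.5 are given with the same limit on the naive and EIF4A1 KO DMSO footprints. Its footprints were 2.41 and 1.65 CPM in naive DMSO, 5.07 and 3.26 CPM in EIF4A1 KO DMSO and 2.22 and 2.06 CPM in EIF4A2 KO DMSO. With PP242 at 1 µM and 10 µM they were 3.61 and 3.91 CPM in naive, 3.67 and 4.10 CPM in EIF4A1 KO and 3.68 and 3.66 CPM in EIF4A2 KO cells. The response of EIF4A2 KO cells did not pass the test for this member, with a log2 fold change of 0.60 ± 0.221 (SE; edgeR adjusted p = 0.061).

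The member with the largest fall in EIF4A2 KO cells, also picked out after its values were seen, was ENST00000422569.5. Its footprints were 12.4 and 13.0 CPM in DMSO and 7.67 and 6.89 CPM at 1 µM and 10 µM, a log2 fold change of -0.99 ± 0.126 (SE; edgeR adjusted p = 8.471e-09). The other member of its locus, ENST00000372393.7, named for its RNA-seq level, fell by 0.90 on the log2 scale ± 0.0988 (SE; edgeR adjusted p = 8.505e-11).

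The knockouts were also compared with each other with PP242. A lower level in EIF4A2 KO cells gives the same call as a higher level in EIF4A1 KO cells. The comparison therefore cannot say to which line a difference belongs. By edgeR, 30 members of 16 loci were higher in the EIF4A1 KO line than in the EIF4A2 KO line, beside 12.4% of all transcripts tested, and 12 members of 9 loci were lower, beside 10.5%. Among the candidates the shares were 18.1% and 13.6%. The 30 comprised 6 members with lower, 13 with nearly level and 11 with higher RNA, and the 12 comprised 9 with lower and 3 with nearly level RNA. Against naive cells, 0 members with lower RNA were called higher in the EIF4A1 KO line. ENST00000323963.10 had the largest difference, a log2 fold change of 3.41 ± 0.104 (SE; edgeR adjusted p = 2.306e-34). Its EIF4A2 KO footprints were below naive, at 11.3 and 11.9 CPM against 18.8 and 29.4 CPM at 1 µM and 10 µM. The comparison of the knockouts shares the EIF4A1 KO PP242 libraries with the one against naive cells.

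EIF4A2 KO cells against naive cells with PP242 gave fewer calls. In edgeR, 6 members of 5 loci were higher, beside 3.38% of all transcripts tested, and 10 members of 6 loci were lower, beside 4.5%. Among the candidates 4.53% were higher and 7.55% lower. All 6 higher members, and 7 of the 10 lower ones, had lower RNA in EIF4A1 KO cells. The other 3 lower ones had higher RNA. ENST00000368222.8 was the highest, with 13.7 and 13.7 CPM in EIF4A2 KO against 7.43 and 5.55 CPM in naive cells at 1 µM and 10 µM and a log2 fold change of 1.02 ± 0.149 (SE; edgeR adjusted p = 1.138e-06).

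The lowest was the locus of ENST00000522161.5, picked out after its values were seen. Its footprints at 1 µM and 10 µM were 2.57 and 2.26 CPM in naive, 3.12 and 2.46 CPM in EIF4A1 KO and 0.507 and 0.109 CPM in EIF4A2 KO cells, a log2 fold change of EIF4A2 KO against naive of -3.04 ± 0.42 (SE; edgeR adjusted p = 3.21e-07). At 1 µM and 10 µM the EIF4A2 KO values rest on 8 and 2 counts. In DMSO, EIF4A2 KO cells had 0.217 and 0.100 CPM (4 and 2 counts) and naive cells 2.26 and 1.86 CPM. The low level in EIF4A2 KO cells was thus present without PP242.

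Pulldowns asked how much RNA of each member was captured with each paralog, relative to the input of the same cells. All fold changes here are edgeR's, scaled by TMM, which moved the candidate median against the log2 CPM scale from -0.45 to -0.28 for SBP-eIF4A1, from -0.22 to -0.39 for SBP-eIF4A2 and from 0.12 to -0.42 for the siControl pulldown. With SBP-eIF4A1, 13 members of 8 loci were higher in the pulldown, beside 32.1% of all 65768 transcripts tested, and 65 members of 38 loci were lower, beside 31.8%. Among the candidates 27.8% were higher and 51.4% lower. The members' median was -0.69 and that of the candidates -0.28. The 2 members of the ENST00000522161.5 locus had 0 counts in all 4 of these libraries, so their capture with SBP-eIF4A1 was not measured. Of the 64 members with nearly level RNA, 52 were lower and 5 higher, and of the 11 with higher RNA, 6 were higher and 2 lower. Those 6 are the members of 1 locus, that of ENST00000323963.10.

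With SBP-eIF4A2, 12 members of 7 loci were higher, beside 33.6% of all transcripts tested, and 75 members of 42 loci were lower, beside 34.5%. Among the candidates 23.3% were higher and 57.5% lower, and the medians were -0.62 for the members and -0.39 for the candidates. Of the 25 members with lower RNA, 23 were lower in this pulldown.

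**Figure D4:**
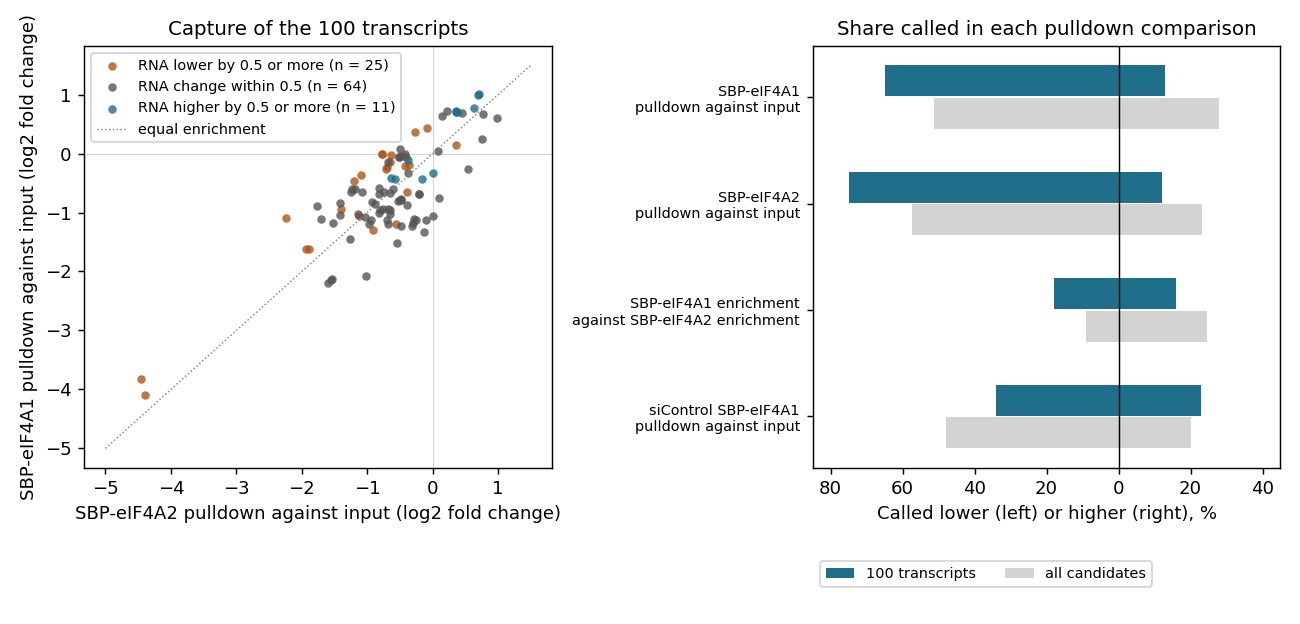
Left, each point is 1 of the 100 members, with the edgeR log2 fold change of pulldown against input for SBP-eIF4A2 on the horizontal and SBP-eIF4A1 on the vertical axis, and a dotted line of equal enrichment; the 2 members with no SBP-eIF4A1 counts are drawn at 0 on the vertical axis. Right, the percentage of the 100 members and of all candidates tested that were called lower (to the left) or higher (to the right) at an adjusted p under 0.05; the members were lower with SBP-eIF4A1 in 65% and with SBP-eIF4A2 in 75%, against 51.4% and 57.5% of candidates.

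The lowest members in both pulldowns were ENST00000541790.3 and ENST00000613174.1. ENST00000613174.1 had 6.58 and 6.40 CPM in the SBP-eIF4A1 inputs and 0.276 and 0.526 CPM in the pulldowns, a log2 fold change of -3.82 ± 0.195 (SE; edgeR adjusted p = 4.685e-11). With SBP-eIF4A2 it had 22.8 and 23.2 CPM in the inputs and 1.39 and 0.981 CPM in the pulldowns, a log2 fold change of -4.46 ± 0.135 (SE; edgeR adjusted p = 1.008e-13). Input and pulldown were far apart for both proteins.

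ENST00000541790.3 had 1.04 and 1.37 CPM in the SBP-eIF4A1 inputs and 0.0212 and 0.0974 CPM in the pulldowns, where it rested on 1 and 5 counts. Its log2 fold change was -4.09 ± 0.403 (SE; edgeR adjusted p = 1.441e-07). With SBP-eIF4A2 it had 6.79 and 6.68 CPM in the inputs and 0.381 and 0.338 CPM in the pulldowns, a log2 fold change of -4.40 ± 0.21 (SE; edgeR adjusted p = 1.685e-11). Both transcripts had lower RNA in EIF4A1 KO cells.

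On the higher side with SBP-eIF4A1, 1 transcript per locus, stood ENST00000432504.1 and ENST00000323963.10. ENST00000432504.1 had 1.36 and 1.66 CPM in the inputs and 2.32 and 2.12 CPM in the pulldowns, a log2 fold change of 0.72 ± 0.184 (SE; edgeR adjusted p = 0.002598). ENST00000323963.10 had 93.7 and 93.6 CPM in the inputs and 136 and 137 CPM in the pulldowns, a log2 fold change of 0.71 ± 0.0597 (SE; edgeR adjusted p = 2.026e-08). Neither overlapped its inputs.

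With SBP-eIF4A2 the highest was ENST00000399594.7, at 6.49 and 6.89 CPM in the inputs and 14.4 and 15.5 CPM in the pulldowns, a log2 fold change of 0.99 ± 0.0845 (SE; edgeR adjusted p = 2.233e-08). It was also higher with SBP-eIF4A1, at 0.61 ± 0.0871 (SE; edgeR adjusted p = 1.163e-05), and with PP242 its footprints were higher in EIF4A1 KO than in naive cells, at 0.93 ± 0.248 (SE; edgeR adjusted p = 0.006334). ENST00000547087.5, with footprints at one level in all PP242 libraries, had 7.48 and 7.46 CPM in the SBP-eIF4A2 inputs and 15.6 and 13.3 CPM in the pulldowns, a log2 fold change of 0.77 ± 0.0843 (SE; edgeR adjusted p = 4.235e-07).

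The difference between the enrichments was tested directly. In edgeR, 16 members of 9 loci were more enriched with SBP-eIF4A1 than with SBP-eIF4A2, beside 12.6% of all transcripts tested, and 18 members of 10 loci were less enriched, beside 7.46%. Among the candidates these shares were 24.5% and 9.09%, and the medians were 0.10 for the members and 0.11 for the candidates. Of the 18 less enriched members, 17 had nearly level RNA. The balance turned on 1 library: 31 members were more and 27 less enriched without SBP-eIF4A2 pulldown replicate 1, and 11 and 9 without SBP-eIF4A1 pulldown replicate 1. Totals were from 17 to 58 when 1 library was left out, and 21 with DESeq2's Wald test, beside 11.97%, 33.5% and 14.4% of all transcripts called in either direction (20.1% with all libraries).

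ENST00000617821.4 was the least enriched with SBP-eIF4A1 relative to SBP-eIF4A2 among the named members. It had 17.4 and 16.9 CPM in the SBP-eIF4A1 inputs and 7.39 and 7.25 CPM in the pulldowns, against 17.4 and 16.5 CPM in the SBP-eIF4A2 inputs and 20.02 and 18.4 CPM in the pulldowns. Only the SBP-eIF4A1 pulldown was below its input, and the difference of enrichments was -1.06 ± 0.102 (SE; edgeR adjusted p = 2.45e-06). ENST00000381151.5 was lower in both pulldowns and differed by -1.06 ± 0.148 (SE; edgeR adjusted p = 9.433e-05).

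In the other direction, ENST00000549540.1 differed by 1.14 ± 0.255 (SE; edgeR adjusted p = 0.004348), with 4.17 and 3.80 CPM in the SBP-eIF4A1 inputs, 1.81 and 1.52 CPM in the pulldowns, 2.28 and 2.37 CPM in the SBP-eIF4A2 inputs and 0.572 and 0.541 CPM in the pulldowns. It was lower in both pulldowns. ENST00000407280.4 differed by 0.74 ± 0.181 (SE; edgeR adjusted p = 0.008177). That call was lost without SBP-eIF4A1 input replicate 2 (adjusted p = 0.056) and without SBP-eIF4A2 input replicate 2 (adjusted p = 0.051).

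In the siRNA experiment the SBP-eIF4A1 pulldown gave another balance. With siControl, 23 members of 14 loci were higher in the pulldown by edgeR, beside 29.1% of all 65793 transcripts tested, and 34 members of 22 loci were lower, beside 28.0%. Among the candidates 20.1% were higher and 47.9% lower. The medians were -0.24 for the members and -0.42 for the candidates, the opposite order to the pulldown without siRNA. On the log2 CPM scale the sign of these medians was the other one, 0.31 for the members and 0.12 for the candidates. Members with nearly level RNA were split, with 18 higher and 17 lower, and of those with lower RNA 17 were lower and 3 higher. Without the library labelled siLARP1 input replicate 2, which enters this fit only through the spread, 24 members were higher and 35 lower, beside 58.7% of all transcripts called in either direction. This alternative was chosen after seeing the data.

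Single members also differed between the experiments. ENST00000617821.4 had 22.5 and 24.8 CPM in the siControl inputs and 49.2 and 70.6 CPM in the pulldowns, a log2 fold change of 0.79 ± 0.192 (SE; edgeR adjusted p = 0.00056), while without siRNA it was lower, at -1.06 ± 0.0766 (SE; edgeR adjusted p = 3.154e-09). ENST00000549293.5 had 9.53 and 9.67 CPM in the siControl inputs and 28.7 and 35.6 CPM in the pulldowns, a log2 fold change of 1.20 ± 0.199 (SE; edgeR adjusted p = 2.645e-06). ENST00000613174.1 was lower in both, with 38.9 and 43.1 CPM in the siControl inputs and 1.33 and 0.763 CPM in the pulldowns. Without siLARP1 input replicate 2 the log2 fold changes in the siControl experiment were 0.79 for ENST00000617821.4, 1.20 for ENST00000549293.5 and -5.83 for ENST00000613174.1. For ENST00000323963.10 and ENST00000432504.1, both higher in the pulldown without siRNA, they were -0.11 and 0.42. On the log2 CPM scale, with all siControl libraries, these 2 members had 0.43 and 0.98. The experiments were fitted separately, and the difference between them was not tested.

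LARP1 knockdown was compared in the inputs. By edgeR, 1 member was higher in the siLARP1 inputs, beside 0.491% of all transcripts tested, and 0 were lower, beside 0.448%. At an unadjusted p under 0.05 in edgeR there were 15 higher and 1 lower, beside 6.92% and 6.46% of all transcripts tested. DESeq2's Wald test called 1 higher and 0 lower, beside 1.70% of all transcripts in either direction. The unadjusted counts and the DESeq2 calls include the library labelled siLARP1 input replicate 2 and were not taken without it. Among the candidates 0.534% were higher and 0.89% lower. The member called was ENST00000262113.9, at 2.04 and 2.08 CPM in the siControl inputs and 5.41 and 7.03 CPM in the siLARP1 inputs, a log2 fold change of 1.38 ± 0.222 (SE; edgeR adjusted p = 0.001017). Without the library labelled siLARP1 input replicate 2, 0 members were called, and this member had an adjusted p of 0.054. Without siControl input replicate 1, 3 members were called, and without siLARP1 input replicate 1, 9 members, beside 0.743% and 0.383% of all transcripts in either direction.

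ENST00000323963.10 showed how that library differed. It had 87.1 and 84.8 CPM in the siControl inputs, 75.8 CPM in siLARP1 input replicate 1 and 274 CPM in siLARP1 input replicate 2, while the SBP-eIF4A2 inputs had 272 and 276 CPM and the siLARP1 pulldown 105 CPM. ENST00000522161.5 had 0.305 and 0.268 CPM in the siControl inputs, 0.289 CPM in siLARP1 input replicate 1, 1.89 CPM in siLARP1 input replicate 2, and 2.48 and 2.56 CPM in the SBP-eIF4A2 inputs. In both members the second siLARP1 input lay with or toward the SBP-eIF4A2 inputs and the first with the siControl inputs. The source of this was not tested.

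With 1 siLARP1 pulldown library, the change of SBP-eIF4A1 enrichment after LARP1 knockdown has no test. On the log2 CPM scale its median was -0.063 over the members and -0.15 over the candidates, and 61 members and 71.2% of candidates were below 0. Without siControl pulldown replicate 1 the members' median was -0.18 (candidates -0.16), and without siControl pulldown replicate 2 it was 0.025 (candidates -0.15), so the members' median changed sign with 1 control library. Without the library labelled siLARP1 input replicate 2 it was -0.10 (candidates -0.16).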

How the data were processed

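The authors deposited 1 table per library with whole-number counts per Ensembl transcript, and a length per transcript in a unit that is not given by the files. The deposited length, a number with no stated unit, served only as an upper limit. Per the submitters' processing notes, CASAVA 1.8, STAR 2.7.0a and hg38 were used. The counter and the annotation are not given in the sources used here.

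From the deposited counts, transcripts equal in all 31 libraries were collapsed to the first. Distinct transcripts were tested with edgeR 4.0.16 in R 4.3.3 (TMM, filterByExpr with a minimum count of 10 and a minimum total of 15, glmQLFit and glmQLFTest, two-sided, Benjamini-Hochberg adjustment over all transcripts tested in a comparison, called at an adjusted p under 0.05). Fits used the 12 footprint libraries, the 8 pulldown and input libraries without siRNA and the 7 siRNA libraries, with 1 mean per group, for 9 comparisons. Alternatives were DESeq2 1.42.0, its size factors, no filter, leaving out each library, dose as a term and the replicate number as a block. Tables were handled with Python 3.11.15, pandas 2.3.3 and numpy 2.4.6, and the test was tested on simulated data.

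The members and lists were chosen with earlier results of these data known. The design named members by the largest values of the rule, of RNA-seq level and of the called changes. Since no table paired transcripts with genes, at most 2 identifiers per direction and comparison are named, and the gene lists and cell line markers were not run. Loci stood in for genes. The labels do not say that replicates came from separate cultures, so p-values measure only the spread between libraries, which may be technical. All values are relative to the other transcripts of a library, so a shift shared by all transcripts is not visible. Precision is limited by depth: footprint counts of the members had medians of 88.25 (naive) and 55 (EIF4A1 KO) in DMSO, and SEs cover the spread between libraries.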

Additional observations from a re-analysis of the deposited data

Results flagged for a closer look

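The knockouts were compared directly in the PP242 footprints. By edgeR's quasi-likelihood test, 30 members were higher and 12 lower in the EIF4A1 KO line than in the EIF4A2 KO line in a test of the difference itself. Of all transcripts tested 12.4% were higher and 10.5% lower, and of the candidates 18.1% and 13.6%, and the 12 members called lower lie within that range. All 11 members with higher RNA, from 5 loci, were among the 30, and 9 of the 12 had lower RNA in EIF4A1 KO cells. These RNA groups were made after the values had been seen.

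The paralogs were compared directly in the pulldowns. The test of the difference of enrichments called 16 members higher and 18 lower with SBP-eIF4A1 than with SBP-eIF4A2. The shares were 12.6% and 7.46% of all transcripts tested and 24.5% and 9.09% of the candidates and the medians were 0.10 for the members and 0.11 for the candidates. Of the 18, 17 had nearly level RNA. The direction of this balance depended on single libraries.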

How the results depend on the processing

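The rule gave 103 to 188 transcripts when 1 of the 8 libraries was left out (188 without EIF4A1 KO DMSO replicate 2), with 74 to 86 of the 100 among them, and 68 with TMM factors, all 68 among the 100. A minimum of 30 counts in both naive DMSO footprint libraries, an alternative chosen after seeing the data, left 89. DESeq2's Wald test called 14 members for PP242 footprints of EIF4A1 KO against naive (13 higher, 1 lower), 13 for PP242 against DMSO in EIF4A2 KO cells and 21 for the difference of enrichments, beside 6.94%, 8.41% and 14.4% of all transcripts called. Leaving out 1 library gave 13 to 20 members for PP242 against DMSO in EIF4A2 KO cells. For the difference of enrichments it gave 17 to 58, with the balance turned to more enriched in the 58 (31 and 27) without SBP-eIF4A2 pulldown replicate 1 and in the 20 (11 and 9) without SBP-eIF4A1 pulldown replicate 1. For siLARP1 against siControl inputs it gave 0 to 9, and no filter on low counts gave 10, beside 1.89% of all transcripts. The cause was not tested. Of 89 counts under an alternative, 73 were within 1.5 times and kept their direction, 14 moved further and 2 turned. Of 152 values of named transcripts, 145 kept direction and call, 7 lost the call and 0 turned.

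With the replicate number as a block, 78, 87, 32, 69 and 1 members were called for the SBP-eIF4A1 pulldown, the SBP-eIF4A2 pulldown, their difference, the siControl pulldown (57 without the block) and the siLARP1 inputs, beside 63.8%, 67.9%, 20.5%, 66.8% and 0.486% of all transcripts called. The labels do not say that a number marks a shared batch. The deviations of same-numbered libraries correlated over 5205 transcripts at 0.070 and 0.19 for input and pulldown of SBP-eIF4A1 and SBP-eIF4A2, at 0.49 for siControl and at -0.053 for the siRNA inputs. The footprint groups compared with PP242 share fewer than 2 replicate numbers, so no block could be fitted there. Dose as a term gave 21, 38 and 15 calls for the 3 comparisons with PP242, beside 12.1%, 21.2% and 6.16% of all transcripts. Footprint counts of members went down to 19 in the naive DMSO libraries and lower in others. ENST00000522161.5 had 4 and 2 counts in EIF4A2 KO DMSO, and 8 and 2 at 1 µM and 10 µM PP242.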
